A study of Drosophila melanogaster with 16 samples.

Results

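Subunits of complexes II to IV of the mitochondrial electron transport chain were followed in the ageing cardiac tube, the tubular heart of Drosophila. They were 6 of the 16637 transcripts on the array. FBtr0086552 (SdhA) belongs to complex II. FBtr0083000 (CG3731), FBtr0075309 (CG4169) and FBtr0075222 (CG7580) belong to complex III. FBtr0079288 (CG11015) is subunit 5B of complex IV, and FBtr0086089 (CG10396) is the second copy of complex IV subunit 4 and was set apart. The 6 transcripts were selected on the age contrast itself, because the study had called each of them lower at 40 days in these same samples. Their difference between the ages is therefore given as a description, with no test.

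Cardiac tubes were hand dissected from adult males of the isogenic w1118, Canton S line at 40 days and at 10 days. Each age had 4 biological samples (A to D) of 10 pooled tubes, with amplification of the RNA from its 3′ end by oligo(dT) priming. Both ages were hybridised against each other on 8 NimbleGen 2-colour arrays, so that every sample was read once in Cy3 and once in Cy5. All flies had the same genotype and neither age carried a transgene or treatment.

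Complex II oxidises succinate and hands the electrons to ubiquinone. Complex III passes them from ubiquinol to cytochrome c, and complex IV passes them on to oxygen. Complexes III and IV pump protons across the inner membrane, and ATP synthase uses that gradient to make ATP, on which a steadily beating heart depends. Many nuclear genes of the chain exist in Drosophila as a main copy and another copy that is used mainly in the testis, and CG10396 is such a copy.

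Levels are the authors' lowess-normalized linear intensity, as the geometric mean over the 8 probes of a transcript and both dyes. Ratios are log2 ratios of 40 over 10 days within an array, so that -1 is a halving at 40 days. In 8 of the 16 columns of normalized values the intensities followed a scanner channel other than the labelled one, always of the same age and dye. The direction of every ratio is unaffected, but by these values the arrays formed a loop. Each ratio by replicate letter then sets 1 sample of 10 days against 2 of 40 days, and each 40-day sample enters 2 of the 4 ratios. The 4 ratios were thus not separate sample pairs, which holds for every SD and fit over them. Column medians ran from 70.4 to 99.9, and the 95th percentile of 4100 random control probes was exceeded by 22.1% to 29.7% of the gene probes, depending on the channel. None of 17 listed markers of cardiac muscle could be named on the array, so the labelled tissue was not checked against its markers.

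The mean log2 ratio of all 6 transcripts was below 0, with a median of -0.91 against 0.007 over all 16637 transcripts. By complex it was -0.53 ± 0.29 for SdhA of complex II (SD, n = 4 ratios by letter), -0.81 ± 0.55 for the mean of the 3 complex III subunits and -0.93 ± 0.54 for CG11015 of complex IV. The second copy, CG10396, had a mean ratio of -1.77 ± 1.38. These means took in dim probes. In a setting chosen after the values were seen, only probes above the control percentile in all 16 channels were kept. SdhA then had -0.98 and CG11015 -0.93, and CG3731, CG4169 and CG7580 had -1.17, -0.50 and -1.16. The order of the complexes thus depended on the probes taken. Over all probes the spread of the 4 ratios by letter was wide beside the mean. In log2 units it was widest for CG10396, and beside its own mean it was widest for CG3731 (-0.89 ± 0.82). With limma across all transcripts 0 of the 6 passed an adjusted p of 0.01, a threshold that 0.0421% of all transcripts passed in the lower direction. At 0.05 it was also 0 of 6, with 0.198% of all transcripts called lower, and all 6 had an unadjusted p under 0.05, as did 7.55% of all transcripts in that direction. In a fit of 4 samples against 4 on the normalized values 0 of 6 passed 0.01 or 0.05, where 0.0361% and 0.102% of transcripts were called lower, and 4 of the 6 had an unadjusted p under 0.05, as did 6.12% of all transcripts in that direction. Nothing is read from these counts, since the same contrast chose the members.

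SdhA is the flavoprotein subunit of complex II, which carries the site of succinate oxidation. Its intensity was 169, 168.3, 260.0 and 204.9 in the 40-day samples A, B, C and D, against 273.6, 400.5, 260.2 and 245.9 in the 10-day samples A, B, C and D. At 40 days 3 of the 4 samples lay below every 10-day sample, and 40-day C lay above 10-day D. The geometric means were 197.3 at 40 days and 289.3 at 10 days, a log2 difference of -0.55 (SD 0.30 among 40-day samples and 0.32 among 10-day samples). The highest sample was 10-day B, which set SdhA apart from the complex III and IV subunits described next.

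CG3731 (UQCR-C1) and CG4169 (UQCR-C2) are the core proteins of complex III, which face the mitochondrial matrix. CG3731 had an intensity of 303.2, 309.1, 974.9 and 258.3 in 40-day A to D, against 984.7, 436.7, 1215.5 and 605.0 in 10-day A to D. Thus 40-day C stood apart from its age group and was more than double 10-day B. The log2 difference was -0.94, with an SD of 0.88 at 40 days and 0.67 at 10 days. CG4169 had an intensity of 194.7, 206.5, 306.2 and 182.9 in 40-day A to D, against 295.2, 250.0, 364.0 and 254.2 in 10-day A to D. Here too 40-day C was the one sample of its age inside the 10-day range. The log2 difference of CG4169 was -0.40, the smallest of the 6 (SD 0.34 at 40 days and 0.25 at 10 days).

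CG7580 (UQCR-Q) is a small accessory subunit of complex III. Its intensity was 1424.6, 1316.5, 2079.4 and 682.5 in 40-day A to D, against 4078.6, 1536.4, 4586.7 and 2421.4 in 10-day A to D. Only 40-day C exceeded a 10-day sample, namely 10-day B. The geometric mean was 1277.3 at 40 days and 2888.3 at 10 days, a log2 difference of -1.18 (SD 0.67 at 40 days and 0.73 at 10 days), which was the largest among the 5 members other than CG10396.

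CG11015 (COX5B) is a nuclear-encoded structural subunit of complex IV. Its intensity was 1070.5, 1170.2, 1902.4 and 749.5 in 40-day A to D, against 2881.6, 1361.2, 3010.2 and 2110.1 in 10-day A to D. The pattern was that of CG7580, with 40-day D lowest, 40-day C highest of its age and 10-day B lowest of its age. The log2 difference was -0.95 (SD 0.55 at 40 days and 0.53 at 10 days).

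CG10396 (COX4L) differed from the others in which samples were high. Its intensity was 387.9, 178.5, 148.0 and 271.9 in 40-day A to D, against 335.5, 2584.7, 819.7 and 661.9 in 10-day A to D. The lowest sample was 40-day C and the highest was 10-day B, the pair in which the 4 complex III and IV transcripts were higher at 40 days than at 10 days. The overlap between the ages came from 40-day A, which lay above 10-day A. The geometric mean was 229.7 at 40 days and 828.2 at 10 days, a log2 difference of -1.85 with an SD of 0.62 at 40 days and 1.22 at 10 days. Of 5143 transcripts above the control probes, 98.3% had a smaller SD among the 10-day samples than CG10396. In none of the 6 transcripts did all 4 samples of 40 days lie below all 4 of 10 days, which held for 2.24% of all transcripts.

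**Figure D1:**
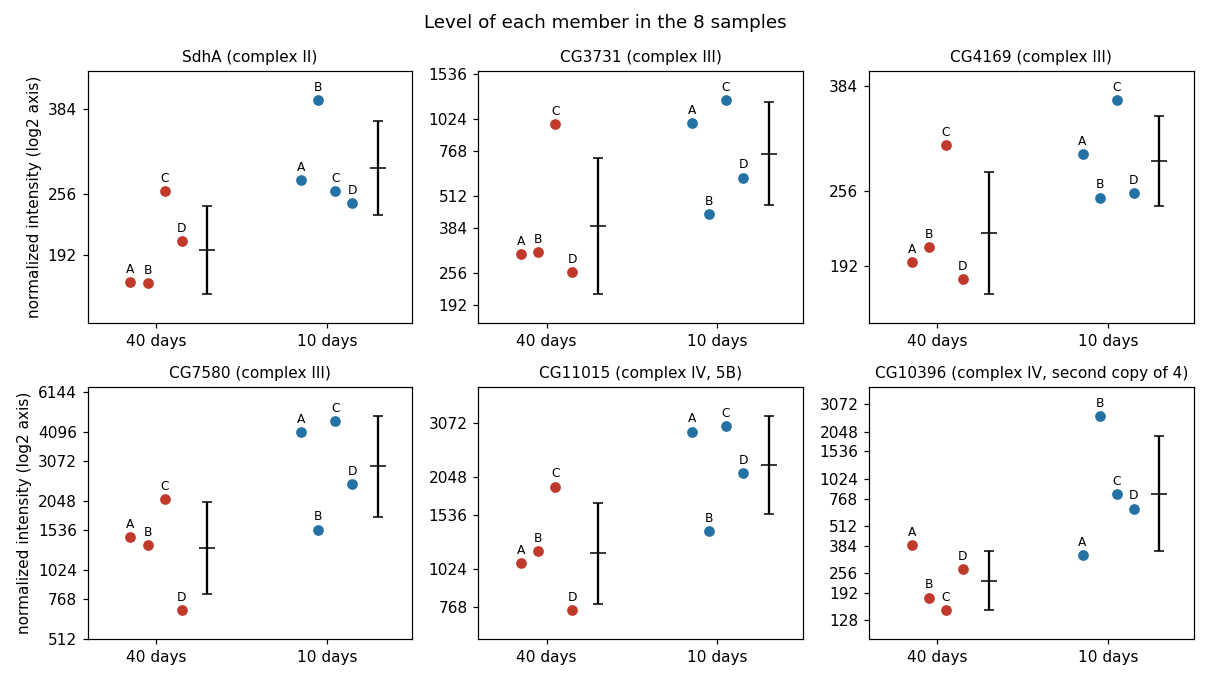
Normalized intensity (log2 axis) of each of the 6 transcripts in the 40-day samples (red, left) and the 10-day samples (blue, right), 1 point per sample with its replicate letter; the bar is the mean of the log2 values ± SD (n = 4). One 40-day sample reached into the 10-day range for every transcript, sample C for 5 of them and sample A for CG10396.

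The share of the difference that rested on 40-day C and 10-day B was therefore opposite in sign for CG10396 and for complexes III and IV. This was computed after the values had been seen. Without 10-day B the log2 difference of CG10396 was -1.30, and without both 40-day C and 10-day B it was -1.09. For CG3731 it was -1.20 without 10-day B and -1.63 without both. In the same settings CG7580 had -1.48 and -1.72, CG11015 had -1.19 and -1.43, and CG4169 had -0.47 and -0.63. SdhA had -0.40 without 10-day B and -0.53 without both, against -0.55 with all samples. Without 10-day B it thus moved towards 0, as CG10396 did. All 6 differences stayed below 0 in each of these settings.

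The arrays showed the same contrast directly. Each transcript had a ratio below 0 on 7 of the 8 arrays. The exception was array 5 for 4 of the transcripts, with ratios of 1.04 for CG3731, 0.34 for CG4169, 0.36 for CG7580 and 0.43 for CG11015. By the normalized values its channels followed 40-day C and 10-day B. On that array CG10396 had its lowest ratio, -4.21, and SdhA had -0.86 over all its probes. The bright SdhA probes at positions 1374, 1629, 1711 and 1871 had -1.57, -1.71, -1.49 and -1.77 on array 5. For CG10396 the 8 probes ran from -4.89 to -3.08 there, whereas all 8 of CG3731, CG7580 and CG11015 were above 0. In CG4169 6 of 8 were above 0. Of its 3 probes above the control percentile in all 16 channels, that at position 130 had 0.62. Those at 464 and 1087 had -0.40 and -0.19. From the first to the last probe the array 5 ratio went from 1.33 to 0.05 in CG3731 and from 0.83 to 0.23 in CG11015. In CG7580 it went from 0.14 to 0.31. The size of the ratio on array 5 thus depended on the probe in CG3731, CG4169 and CG11015.

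On array 1, whose channels followed sample A of both ages, the order was turned. CG10396 had 0.06, and the other 5 ran from -1.87 for CG3731 to -0.56 for CG4169. SdhA had its only ratio above 0 on array 4, at 0.05. The ratio of CG10396 minus the mean of the other 5 was 0.84, -1.30, -3.31 and -0.20 for letters A, B, C and D, with a mean of -0.99 ± 1.77 (SD, n = 4). It had no common direction over the 4 letters, so CG10396 did not differ from the others beyond the spread of the ratios.

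**Figure D2:**
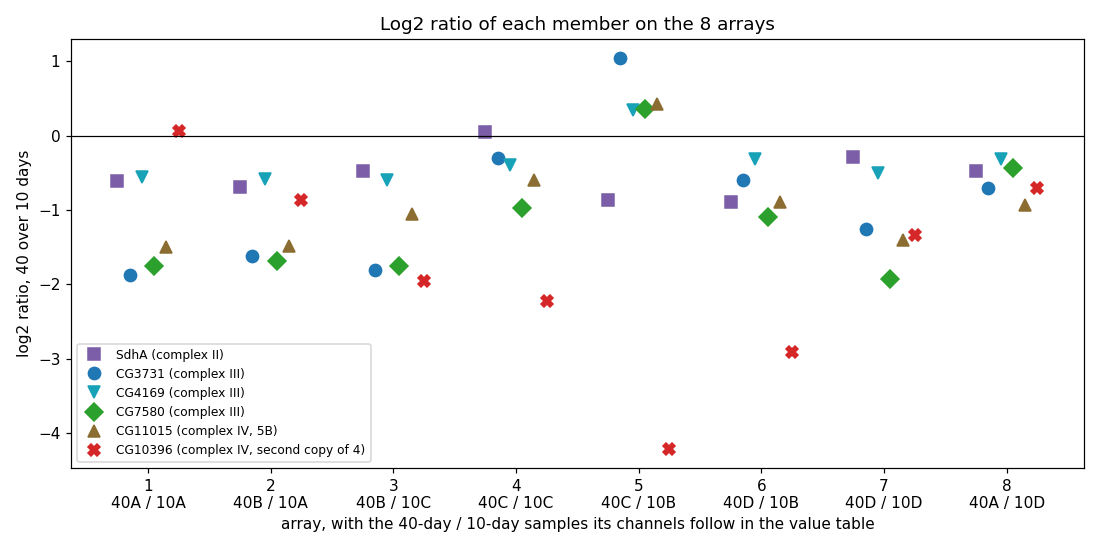
Log2 ratio of 40 over 10 days (vertical axis) of the 6 transcripts on each of the 8 arrays; under each array number stand the 40-day and the 10-day sample that its channels follow in the normalized values. On array 5 the complex III and IV subunits lay above 0 and CG10396 was at -4.21.

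The call that chose the members weighed the difference between the ages against the spread. The study compared the ages directly on 2-colour arrays, so that spread can depend on which samples met on an array. The order of the samples within an age was therefore not fully free of that choice. It was compared between members as a description, and the permutation p-values hold for the chosen members only. Each sample's deviation from the mean of its age was taken over the 8 samples, and the 15 pairs of members were tested by exact permutation of samples within ages (576 permutations, two-sided, smallest p 0.0017). CG3731 and CG4169 deviated together, with Pearson's r = 0.97 (permutation p = 0.0017, adjusted over the 15 pairs 0.013) and Spearman's rho = 0.90 (permutation p = 0.0035, adjusted 0.017). CG7580 and CG11015 did as well, with r = 0.97 (permutation p = 0.0052, adjusted 0.026) and rho = 0.93 (permutation p = 0.0087, adjusted 0.026). Without the 2 samples farthest from the median r was 0.90 in both pairs. The weakest of the 6 pairs among CG3731, CG4169, CG7580 and CG11015 was CG4169 with CG7580, at r = 0.82 (permutation p = 0.028, adjusted 0.069) and rho = 0.95 (permutation p = 0.010, adjusted 0.026).

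In levels averaged over all probes, SdhA and CG10396 were not part of that group. The level of SdhA took in its probes at positions 701, 801 and 990, which exceeded the controls in 0 channels. Its deviations from the bright probes alone were not compared. SdhA had r between -0.25 and 0.23 with these 4 transcripts and 0.35 with CG10396, with adjusted permutation p from 0.59 to 0.73, and its rho lay between -0.14 and 0.19 (adjusted permutation p from 0.92 to 0.95). CG10396 had r between -0.74 and -0.46 with the 4, with adjusted permutation p from 0.12 to 0.36, and rho between -0.79 and -0.62 (adjusted permutation p from 0.11 to 0.23). Without the 2 farthest samples its r lay between -0.87 and -0.27. Its opposite course was thus not past the threshold at 8 samples. Samples that shared an array also share its normalization, so the 8 deviations are not fully independent.

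**Figure D3:**
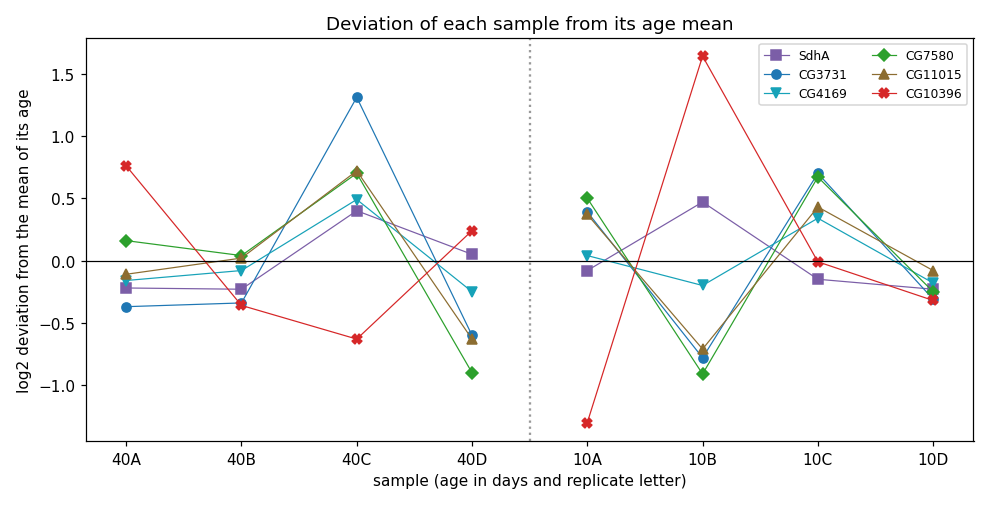
Log2 deviation of each sample from the mean of its age (vertical axis) for the 6 transcripts, 40-day samples left and 10-day samples right of the dotted line; lines join the values of 1 transcript and replicates have no order. CG3731, CG4169, CG7580 and CG11015 were high in 40C and low in 10B, where CG10396 deviated by -0.63 and 1.64.

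Such shared deviations were not particular to these subunits. Of the 5137 other transcripts above the control probes, 6.97% had r above 0.9 with the mean of the 4 complex III and IV transcripts, 7.96% with the mean of the 5 members other than CG10396, and 5.53% with CG10396. The 5 transcripts most like the mean of the 5 members were FBtr0085384 (r = 0.998 over 8 samples), FBtr0074712 (0.995), FBtr0075650 (0.994), FBtr0074815 (0.991) and FBtr0083281 (0.990). The 5 most like CG10396 were FBtr0080671 (r = 0.997), FBtr0081381 (0.992), FBtr0079778 (0.991), FBtr0076286 (0.990) and FBtr0076747 (0.990). None of these 10 could be given a gene name. Their mean log2 ratios ran from -0.86 to 0.17 in the first set and from -1.07 to -0.61 in the second.

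The 48 probes of the 6 transcripts showed where along the transcript the ratios came from. The mean over the 8 arrays was below 0 for 46 of the 48 probes. All 8 probes of CG7580, at positions 1 to 204, were brighter than the control percentile in all 16 channels, and their ratios ran only from -1.25 to -1.07. The 8 probes of CG11015, at positions 15 to 294, were likewise bright throughout and ran from -1.11 to -0.75. CG7580 thus gave nearly the same ratio along the stretch that was probed. CG11015 had ratios from -0.99 to -0.75 at positions 15 to 195 and from -1.11 to -1.04 at 239 to 294.

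The longer transcripts varied more between probes. The first 3 probes of SdhA, at positions 701, 801 and 990, exceeded the controls in 0 of 16 channels and so measured no level, and the probe at 1195 did so in 5 channels. The 4 probes at 1374, 1629, 1711 and 1871 exceeded them in all channels, with ratios of -1.02, -1.10, -0.92 and -0.89. The mean of those 4 was -0.98, against -0.53 over all 8 probes, a change larger than the SD over the letters. In CG3731 the ratio ran from -0.38 at position 46 to -0.82 at 602, where fewer than 16 channels exceeded the controls. It ran from -1.28 to -1.06 at the 4 bright probes between 939 and 1307. Their mean was -1.17.

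CG4169 varied most between bright probes. Its probes at 130 and 464 exceeded the controls in all 16 channels and had ratios of -0.21 and -0.23, whereas the last probe, at 1087, had -1.07. That last probe was below 0 on all 8 arrays and its samples did not overlap between the ages. In the other 5 probes of CG4169 between 1 and 9 channels exceeded the controls, with ratios from -0.47 to -0.09. The size of its transcript ratio therefore depended on which probes were taken.

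CG10396 was below 0 at all 8 probes, from -2.23 at position 342 to -1.28 at position 255. The probe at 255 exceeded the controls in 0 of 8 channels of 40 days and in 6 of 8 channels of 10 days, so that its ratio holds only a bound at 40 days. The 4 probes above the controls in all channels had a mean of -1.98. In 5 of the 48 probes all 40-day samples lay below all 10-day samples, which held for 1.87% of all gene probes. They were 3 of SdhA (1629, 1711 and 1871), the last of CG4169 and the last of CG10396, at 467. In limma's fit over 132999 probes 0 of the 48 passed an adjusted p of 0.01 and 1, at position 1 of CG7580, passed 0.05. Of all probes 0.0459% and 0.239% were called lower at these thresholds, and the age contrast had chosen the transcripts.

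**Figure D4:**
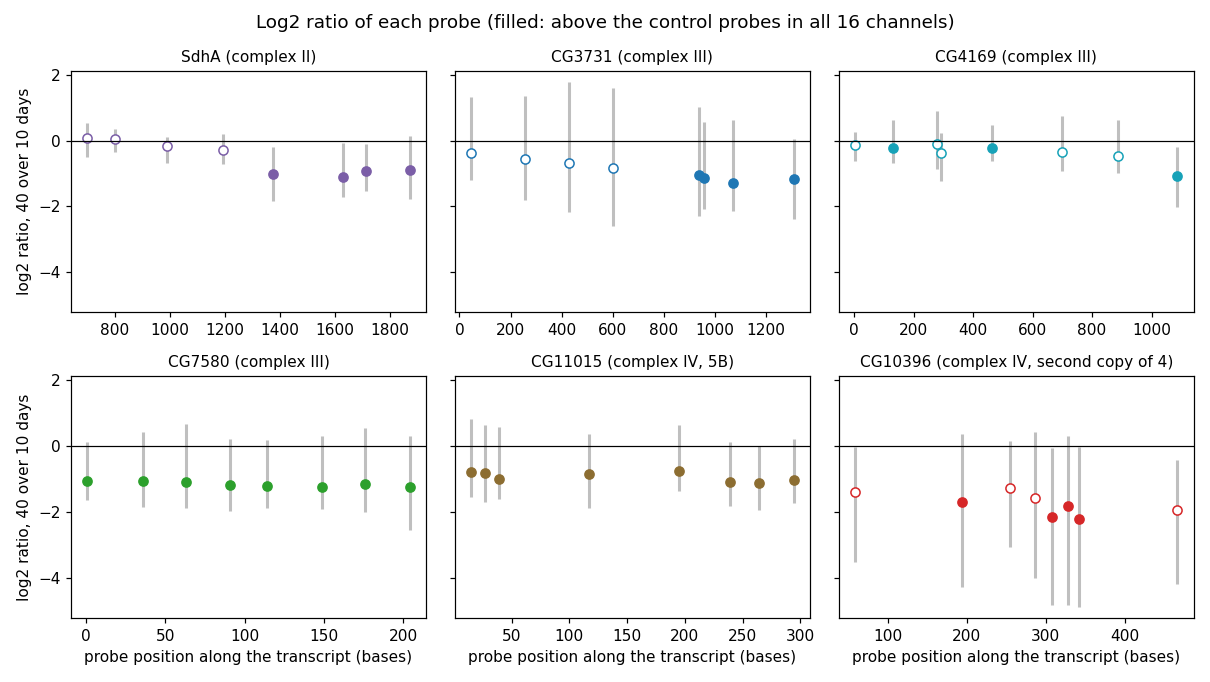
Log2 ratio of 40 over 10 days (vertical axis) of the 8 probes of each transcript by position in bases; points are means over 8 arrays, grey lines the range over arrays, and filled points mark probes above the control percentile in all 16 channels. The ratios were even along CG7580 and somewhat further below 0 at the last probes of CG11015. They lay nearer 0 at the dim probes of SdhA and CG3731.

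The difference between the ages was not the same in both dyes. In the normalized values the median difference of 40 minus 10 days over 5143 transcripts was -0.31 in the Cy5 columns and 0.28 in the Cy3 columns, and -0.01 over both. CG4169 accordingly had -0.79 in Cy5 and -0.01 in Cy3, which is -0.48 and -0.29 relative to those medians. Relative to the same medians CG7580 had -1.09 in Cy5 and -1.23 in Cy3, and CG10396 had -1.83 and -1.84. Relative to the medians CG10396 was nearly the same in both dyes.

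Other subunits of the chain could be named only where the study had called them, so their direction is no independent evidence. In complex I, which feeds electrons from NADH into the chain, 2 of 32 listed genes were named. CG9350 had a mean log2 ratio of -0.66 and CG34439 of -0.33, and neither passed 0.05. One further gene of complex IV was named, CG7630 (COX7B), which was not on the list and was added after its values were seen. Its intensity was 2152.3, 2101.9, 2345.5 and 1252.5 in 40-day A to D, against 4723.2, 2417.5, 4924.2 and 4672.9 in 10-day A to D. The groups did not overlap, 40-day D and 10-day B were the lowest of their ages, and its mean log2 ratio of -1.06 did not pass 0.05. No other gene of complexes II to IV was named, so neither the main copy of subunit 4 nor any mitochondrially encoded subunit could be set beside CG10396.

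Of 13 listed ATP synthase subunits 6 were named, and their median log2 ratio was -0.90. None passed an adjusted p of 0.01 (limma), and 2 passed 0.05 in the ratios by letter, CG3321 at 0.039 and ATPsynG at 0.040, but not in the 4 against 4 samples. CG3321 (ATPsynE) had an intensity of 1276.2, 1481.9, 1700.5 and 1023.0 in 40-day A to D, against 3026.1, 2053.1, 3164.3 and 2708.0 in 10-day A to D. Its groups did not overlap. In ATPsynG they did not overlap either, with 2201.6, 2440.2, 2633.8 and 1523.1 in 40-day A to D against 4410.8, 3248.4, 5205.1 and 4802.8 in 10-day A to D. In both, 40-day C was the highest and 40-day D the lowest of their age and 10-day B the lowest of its age, as in CG7580 and CG11015, but with a smaller spread. The SD among 10-day samples was 0.28 for CG3321 and 0.30 for ATPsynG, against 0.73 for CG7580. These 2 subunits were named for their small p, which favours a small spread. Among the other named subunits that SD was 0.35 for ATPsyn-Cf6, 0.32 for Oscp, 0.43 for CG4692 and 0.77 for ATPsyn-gamma. In the tricarboxylic acid cycle 3 of 17 listed genes were named, with a median ratio of -0.57, and none passed 0.05.

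Of 16 listed second copies of chain subunits 9 were named, CG10396 included. All 9 had a mean ratio below 0, with a median of -0.72, and none passed 0.05. CG18193 (COX7AL), a copy of complex IV subunit 7A, was nearest to CG10396 in size, with a mean log2 ratio of -1.93. Its intensity was 732.7, 321.1, 214.1 and 258.4 in 40-day A to D, against 600.3, 3129.1, 1414.3 and 1224.4 in 10-day A to D. As in CG10396, 40-day C was lowest and 10-day B highest, and 40-day A lay above 10-day A.

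CG11043 (COX5BL) is the copy of CG11015 and lies beside it on chromosome arm 2L, with 0 genes between them in RefSeq's Release 6 annotation. It had an intensity of 114.5, 83.6, 92.4 and 87.0 in 40-day A to D, against 122.0, 167.9, 188.9 and 127.6 in 10-day A to D. The main copy was low in 10-day B and the other copy was not. CG14077 (COX6AL2), a copy of subunit 6A, was at 76.2, 54.5, 62.7 and 70.4 in 40-day A to D, against 71.6, 123.1, 98.0 and 75.7 in 10-day A to D. Of the 8 listed second copies other than CG10396 only 4 lay above the control probes, namely CG11043, CG2014, CG18193 and CG17856. Of these 4, 3 were lowest of all samples in 40-day C and 3 were highest in 10-day B. CG34172 (COX7AL2), another copy of subunit 7A, was not on the list and was added after its values were seen. It had an intensity of 1318.1, 1606.4, 1758.0 and 556.3 in 40-day A to D, against 3664.0, 1965.0, 2918.4 and 5814.1 in 10-day A to D. With 40-day C highest and 10-day B lowest of their ages, CG34172 did not have the order of CG10396. Its mean log2 ratio was -1.45 and did not pass 0.05. Chosen after their values were seen, CG2014 and CG17856 deviated from their age means most like CG10396 among the named copies above the control probes (r = 0.986 and 0.982 over 8 samples).

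Testis markers had some but not all of the order of CG10396 among the samples. Of 31 listed testis genes 7 were named (Mst77F, Mst84Dc, Mst98Ca, Mst98Cb, loopin-1, CG6372 and CG4439), all called by the study, and all 7 had a mean ratio below 0, with a median of -1.17. None passed 0.05. Their summed intensity was 4285, 2700, 1447 and 1199 in 40-day A to D, against 4288, 13346, 11338 and 6046 in 10-day A to D. It was highest in 10-day B, as CG10396 was, but lowest in 40-day D and not in 40-day C. In 10-day B most of it was Mst84Dc, with 9537.8. Of the 7 markers, 4 were highest in 10-day B and 3 in 10-day C, and 0 were lowest in 40-day C. Their mean log2 deviation from the age mean was 0.55 in 40-day A and -0.77 in 10-day A, where CG10396 had 0.76 and -1.30. As in CG10396, 40-day A lay above 10-day A in Mst84Dc, loopin-1 and CG4439. It did not in Mst77F, Mst98Ca, Mst98Cb and CG6372. The 7 markers had r between 0.38 and 0.935 with CG10396 over 8 samples, highest for CG4439, a sperm leucyl aminopeptidase, and lowest for Mst98Ca. Above 0.9 lay 1 of the 7, beside the 5.53% of transcripts given before. The part of testis RNA in the levels of CG10396 was not tested, and fewer cells of a type and less RNA per cell cannot be told apart in these pooled tubes.

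For the mean of CG3731, CG4169, CG7580 and CG11015, r with the 7 testis markers ran from -0.429 to 0.381. Of markers of other cell types, 3 of 8 for fat body and 4 of 9 for haemocytes were named, and their members went in both directions. NimC4, a phagocytic receptor of haemocytes, had 266.6, 433.8, 360.0 and 468.4 in 40-day A to D, against 81.6, 82.0, 69.4 and 92.9 in 10-day A to D (mean log2 ratio 2.06, adjusted p = 0.0060 by limma). Hml, another haemocyte gene, had a ratio of -1.43 (adjusted p = 0.028). The remaining named haemocyte genes were crq, with 0.64 (adjusted p = 0.041 by limma), and Pxn, with -0.22 (adjusted p = 0.26 by limma). Among fat body genes Lsp2 had -1.65 and apolpp 1.22, and neither passed 0.05. Single markers of other tissues had -1.74 for Acp95EF of the accessory gland, 1.62 for Mur29B of the gut and -0.56 for Cubn of nephrocytes, and none of the 3 passed 0.05. The summed intensity of the fat body markers lay between 505 and 925 in 40-day samples and between 537 and 850 in 10-day samples. That of the haemocyte markers lay between 987 and 1087 in 40-day samples and between 868 and 1296 in 10-day samples. These sums overlapped between the ages although NimC4, Hml and Lsp2 did not. The part of other tissues in the levels of the 6 transcripts was not tested.

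**Figure D5:**
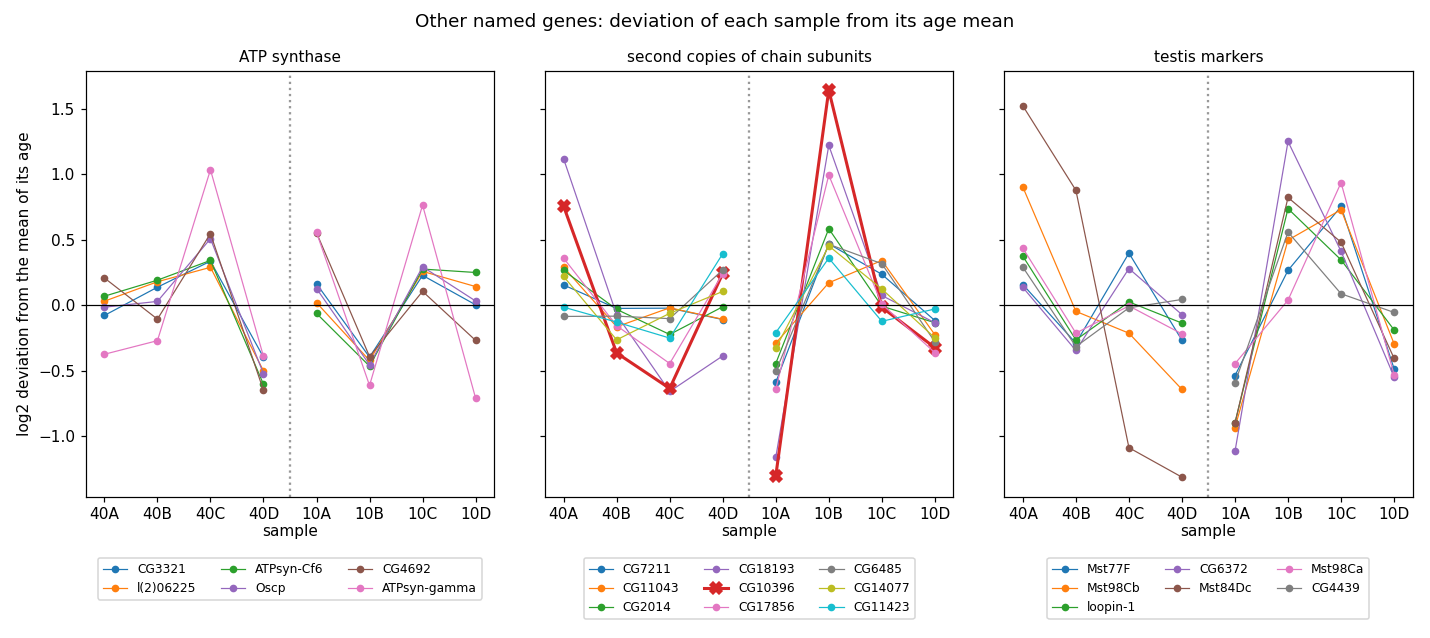
Log2 deviation of each sample from the mean of its age (vertical axis) for the named subunits of ATP synthase, the named second copies of chain subunits with CG10396 in bold, and the named testis markers; 40-day samples stand left of the dotted line, and lines join the values of 1 gene. ATP synthase subunits were low in 10B, where CG10396 and the other second copies drawn were above their age mean.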

How the data were processed

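The authors deposited scanner intensities of 8 NimbleGen arrays (NimbleScan 2.5.26, not normalized) and a table of linear intensities after their lowess normalization. Further upstream settings and the genome build are not given in the sources used here. For the scanner values, normexp (offset 50) and loess within each array were run in R 4.3.3 with limma 3.58.1. Log2 ratios were turned to 40 over 10 days, averaged over the 2 arrays that the labels give to a replicate letter and over the probes of a transcript, and tested with Benjamini-Hochberg adjustment at 0.01. A fit of 4 samples against 4 used the normalized intensities, with both dyes averaged on the log2 scale. Tables were made with Python 3.11.15, pandas 2.3.3 and numpy 2.4.6. No test included the random control probes.

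Gene names came from the probe numbers in the study's lists, or from matching its listed means by value within 0.0005%, which named 1162 transcripts; symbols follow RefSeq Release 6. The lists' own comparisons (fold changes and p-values) were not reported. Genes named beyond the 6 members were, for each complex, those past the threshold or the 2 with the smallest p, every listed second copy of a complex IV subunit, the 5 transcripts most like the members in their deviations, and named markers. CG2014, CG17856, CG7630 and CG34172 fall outside this rule. The members and lists were chosen with earlier results of these data known. Alternatives were another background correction, scaling, probe summary or threshold, a filter on dim probes, and leaving out each letter or sample. The number of arrays limits the precision.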

Additional observations from a re-analysis of the deposited data

Results flagged for a closer look

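Among 18 groups of 4 values that were looked at (the levels of each transcript at 40 days and at 10 days, and its ratios by letter), 1 had a value far from the others. CG3731 in 40-day C stood at 974.9 against 258.3 to 309.1 in the other 40-day samples, and on the log2 scale its gap to the nearest sample was 0.865 of the range of the group, above Dixon's critical value for 4 samples. Chance gives such a value in about 1 of 20 groups. Without 40-day C the log2 difference of CG3731 was -1.37, against -0.94 with it.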

How the results depend on the processing

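All 6 log2 ratios kept their direction in every alternative that was run. SdhA moved by more than its SD, to -0.98, with only probes above the controls in the mean over channels and also with only probes above them in all 16 channels, a setting chosen after seeing the data; in the ratios by letter the other members moved by less than theirs, and by sample CG3731 had -1.63 without 40-day C and 10-day B. CG10396 had -1.17 without letter C. The counts of transcripts past the threshold (7 lower and 24 higher by letter, 6 lower and 50 higher by sample) were less stable. By letter they were 9 and 34 without background correction, 5 and 37 with median centring, 0 and 4 from the value table, 3 and 13 with the median of the probes, 11 and 42 with dim probes left out, and 33 and 222 at a threshold of 0.05. Without the replicate block they were 6 and 50, in a fit that also changed to the value table; within the value table the block by letter gave 0 and 4. Deviations from the age means of same-lettered samples correlated at -0.21, -0.01, 0.44 and 0.24 for A to D over 5143 transcripts, so the letters were not shown to pair the samples beyond their number. Leaving out any 1 letter gave 0 and 0 (1610 to 2937 at an unadjusted p under 0.05). By sample, leaving out 1 sample gave 3 to 8 lower and 20 to 56 higher, and a threshold of 0.05 gave 17 and 121. The cause was not tested. No member passed 0.05 in either main fit. Among the alternatives, CG7580 passed 0.05 in the ratios without letter C, at -1.42.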
